A study of Mus musculus with 8 samples.

Results

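A small set of miRNAs is best known from blood cells and microglia, and 6 of these were followed here in the RNA-induced silencing complex (RISC) of the mouse brain: mmu-miR-142a-3p, mmu-miR-142a-5p, mmu-miR-223-3p, mmu-miR-150-5p, mmu-miR-342-3p and mmu-miR-342-5p, written without the species prefix from here on. They were taken by name from the deposited table of RISC-bound short RNAs (R-sRNAs), where they are 6 of 895 miRNA names and 309 of 47204 distinct read sequences. Each miRNA was quantified as the sum of all its reads in CPM (reads scaled to a library of 1000000 reads). The libraries came from cortex and hippocampus combined, 1 library per mouse, with Argonaute proteins pulled down by a GW182 peptide and short RNAs gel-extracted and sequenced. All 8 mice carried the 5XFAD transgene, a Thy1-driven model of Alzheimer's disease that is expressed mainly in neurons, and all lacked at least 1 copy of Rubicon, a gene that restrains autophagy. The 4 het mice were 5XFADtg Rubicon+/- and the 4 ko mice were 5XFADtg Rubicon-/-. They were females of 6 or 8 months by the study's methods, and its account of this comparison describes age-matched mice of 6 months. That account speaks of 3 het mice, where the labels and the methods give 4, and all 4 were used here. The labels give no age for a single mouse. There was no group without the transgene, so the comparison was between het and ko only.

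miR-142 is made in nearly all cells of the blood lineage, microglia included, and both arms of its hairpin are loaded into Argonaute. miR-223 is the classical miRNA of granulocytes and monocytes, miR-150 is abundant in mature lymphocytes, and miR-342 lies in an intron of Evl, a gene for an actin regulator, and is used as a miRNA of microglia and other leukocytes although it is also found outside them. A miRNA finds its targets through its seed, the bases near its 5' end, so a read that starts 1 base earlier or later has another seed and another set of targets.

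The mature sequences show which bases define the seed of each arm and how the arms of one hairpin differ. They are printed 5' to 3' from RefSeq on GRCm38.p6 with the seed, bases 2 to 8, in capitals, and 5 of the 6 names had an entry.
miR-142a-3p: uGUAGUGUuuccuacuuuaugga
miR-142a-5p: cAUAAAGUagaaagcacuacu
miR-223-3p: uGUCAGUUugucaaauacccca
miR-342-3p: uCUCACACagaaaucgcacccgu
miR-342-5p: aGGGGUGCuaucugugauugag
No 2 of these miRNAs share a seed. On the plus strand of chromosome 11 miR-142a-5p lies at chr11:87756867-87756887 and miR-142a-3p at chr11:87756903-87756925, within an intron of the long noncoding RNA Mir142hg and opposite the minus-strand hairpin Mir142b. The arms of miR-342 lie at chr12:108658638-108658659 (5p) and chr12:108658680-108658702 (3p), also on the plus strand, within an intron of Evl. miR-223-3p lies at chrX:96242884-96242905, within an exon of the noncoding gene F630028O10Rik. The gene annotation is GENCODE M21.

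Sequencing depth differed widely between libraries. It ran from 517980 reads (het1) to 19915863 reads (ko2), and the 2 libraries of more than 5000000 reads were both ko. The 3 reads taken as the detection floor correspond to between 5.79 CPM (het1) and 0.151 CPM (ko2). All 6 miRNAs were above the floor in every library, with 33 to 42438 reads behind each value. Together they made up 0.473% to 0.897% of the reads of a library. The miRNAs of neurons, such as miR-124-3p and miR-9-5p, summed to between 180602 and 283660 CPM, more than the 6 miRNAs together in every library. No mRNA levels were used to identify the cells, and in bulk tissue fewer cells of a type and less of a miRNA per cell cannot be told apart.

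None of the 6 miRNAs passed the test between the genotypes. On log2(CPM + 1) with limma over 463 miRNAs of at least 10 CPM on average, 0 of 6 passed an adjusted p of 0.05. Of all miRNAs tested 1.3% did (6, each with less in ko). Before adjustment the count under 0.05 was also 0 of 6, against 7.34% of all miRNAs tested. That count was 1 of 6 without het4, without ko2 and without the 2 deep ko libraries. There, 31, 58 and 47 of all miRNAs tested were under 0.05. edgeR and DESeq2 on the recovered reads called 0 of 6 as well. The median log2 fold change (ko minus het) was -0.03 over the 6 and -0.09 over all miRNAs tested. Centring each library on its median miRNA instead of its read total moved all values up by 0.22, which is more than the size of the differences of miR-142a-5p, miR-150-5p and miR-342-5p and nearly the size of that of miR-223-3p.

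**Figure D1:**
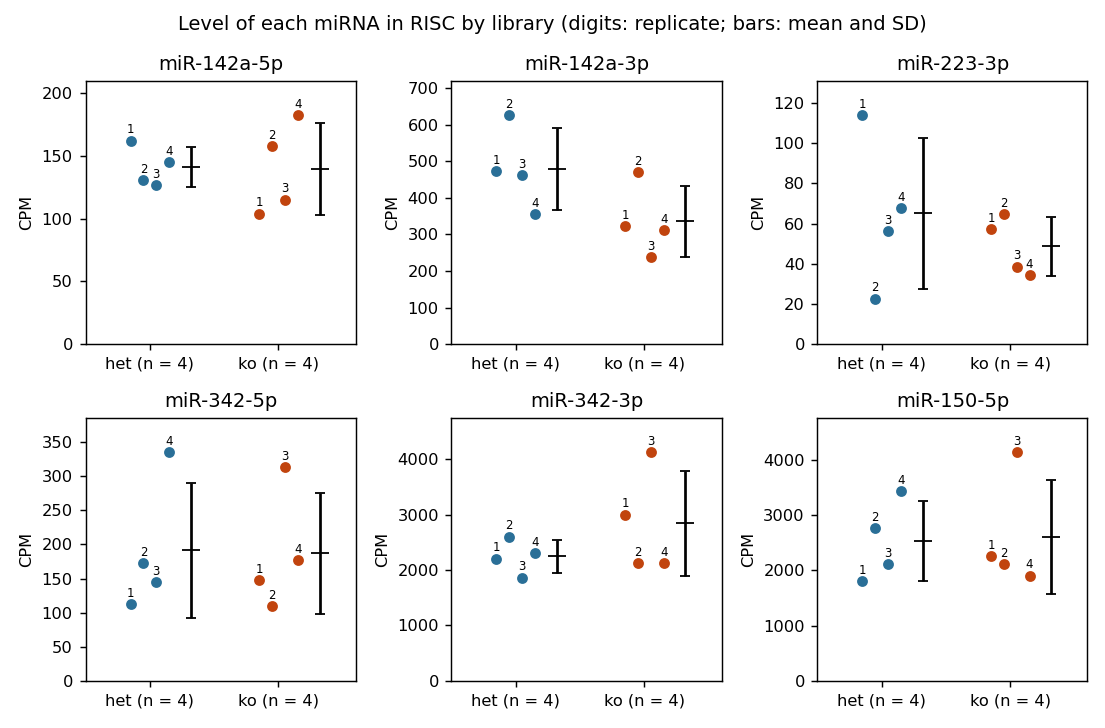
Level of each miRNA in CPM (linear axes from 0) in the 4 het and 4 ko libraries. Points are libraries with their replicate number, and bars give the mean and SD. The genotypes overlap in all 6 panels, and ko3 has the highest miR-150-5p (4136 CPM) and miR-342-3p (4126 CPM).

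miR-142a-3p was the leading strand of its hairpin. It stood at 473, 625, 462 and 355 CPM in het1 to het4 and at 323, 470, 238 and 312 CPM in ko1 to ko4. All 4 ko libraries lay below the het mean, but ko2 was level with het1 and het3, so the groups overlapped. The means were 479 ± 111 CPM in het and 336 ± 97.2 CPM in ko (SD, n = 4 each). The log2 fold change was -0.52 (SE 0.28, 95% interval -1.12 to 0.08, adjusted p = 0.696), which leaves room for anything between a ko level of 0.459 times and one of 1.05 times the het level. Without the 2 deep ko libraries it was -0.78 and with median centring -0.30, and it missed the threshold under each alternative.

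The partner strand miR-142a-5p stood at 162, 131, 127 and 145 CPM in het1 to het4 and at 104, 158, 115 and 182 CPM in ko1 to ko4. The lowest and the highest value were both from ko mice. The means were 141.1 ± 16.1 CPM and 140 ± 36.5 CPM, a log2 fold change of -0.04 (SE 0.29, 95% interval -0.67 to 0.58, adjusted p = 0.995). Its sign turned with median centring, where it was 0.18.

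miR-223-3p, the granulocyte and monocyte miRNA, had the lowest mean of the 6. It stood at 114, 22.7, 56.3 and 67.6 CPM in het1 to het4 and at 57.1, 64.6, 38.7 and 34.3 CPM in ko1 to ko4. The het mice held both extremes, a 5.02-fold range that enclosed all ko values. These extremes rest on 59 reads in het1, with a 95% Wilson interval of 88.3 to 146.9 CPM, and on 33 reads in het2, with an interval of 16.2 to 31.9 CPM, and the intervals do not overlap. Such intervals cover counting error only, since the reads carry no molecular identifiers. The means were 65.1 ± 37.7 CPM and 48.7 ± 14.5 CPM, a log2 fold change of -0.25 (SE 0.46, 95% interval -1.24 to 0.74, adjusted p = 0.975). Single libraries decided this value, which was 0.08 without het1 and -0.67 without het2.

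miR-150-5p was as abundant as miR-342-3p. It exceeded miR-142a-3p by 3.82-fold to 17.3-fold over the 8 libraries, and which cells its reads came from was not tested. It stood at 1809, 2767, 2117 and 3424 CPM in het1 to het4 and at 2252, 2109, 4136 and 1902 CPM in ko1 to ko4. Apart from ko3, the ko libraries lay within the het range. The means were 2529 ± 718 CPM and 2600 ± 1034 CPM, a log2 fold change of 0.01 (SE 0.31, 95% interval -0.66 to 0.68, adjusted p = 0.999). Without ko3 it was -0.24.

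miR-342-3p stood at 2207, 2602, 1864 and 2307 CPM in het1 to het4 and at 2999, 2131, 4126 and 2119 CPM in ko1 to ko4. The ko1 and ko3 libraries were above every het library, and the other ko libraries were inside the het range. The means were 2245 ± 304 CPM and 2844 ± 949 CPM, a log2 fold change of 0.29 (SE 0.27, 95% interval -0.30 to 0.89, adjusted p = 0.948). Without ko3 it was 0.10, and with median centring 0.52.

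The passenger arm miR-342-5p stood at 112, 173, 145 and 335 CPM in het1 to het4 and at 148, 110.1, 313 and 177 CPM in ko1 to ko4. One library of each genotype, het4 and ko3, stood well above the other 6. The means were 191 ± 99.2 CPM and 187 ± 88.5 CPM, a log2 fold change of -0.01 (SE 0.40, 95% interval -0.88 to 0.85, adjusted p = 0.999). Its sign turned with median centring (0.21) and without the 2 deep ko libraries (0.43).

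**Figure D2:**
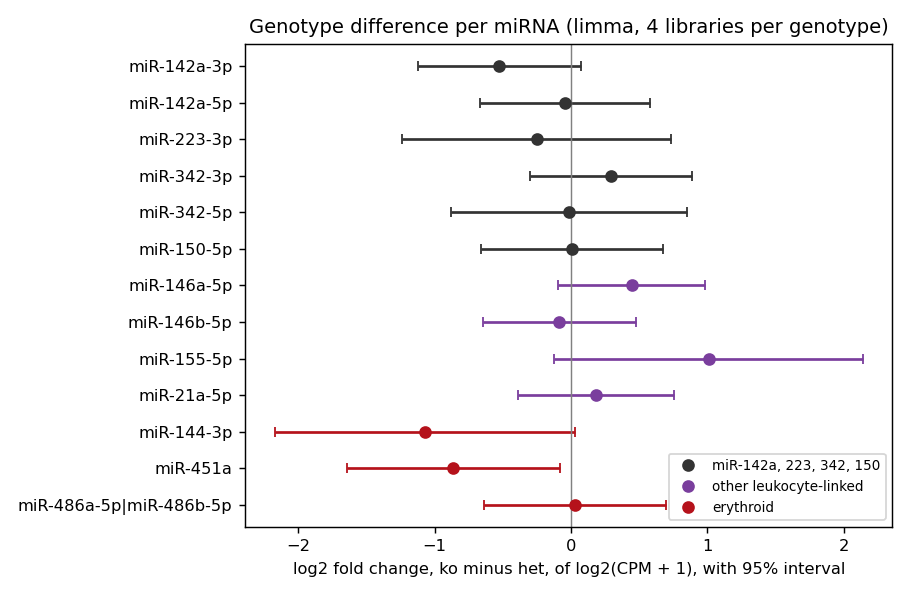
Log2 fold change (ko minus het, on the log2(CPM + 1) scale) with its 95% interval for the 6 miRNAs in black, for 4 other leukocyte-linked miRNAs in purple and for 3 erythroid miRNAs in red. The intervals of all 6 and of the 4 other leukocyte-linked miRNAs cross 0, and that of miR-451a lies below 0 at -0.86. Among the purple ones, miR-155-5p had a het mean of 9.24 CPM, under the minimum of 10 CPM, and was tested through the ko libraries.

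In order of level, miR-150-5p (rank 59 of the miRNAs by mean CPM) and miR-342-3p (rank 60) came first and could not be separated, since miR-150-5p was the higher of the pair in 4 of 8 libraries. Both exceeded miR-142a-3p (rank 166) in all 8 libraries, miR-342-3p by 4.04-fold to 17.3-fold. Next came miR-342-5p (rank 230), which was below miR-142a-3p in 7 of 8 libraries, and miR-142a-5p (rank 252), from which it could not be separated (higher in 5 of 8). miR-223-3p (rank 332) was below miR-142a-5p in all 8 libraries, by 1.42-fold to 5.76-fold, and below miR-342-5p in 7 of 8, the exception being het1 (114 against 112 CPM). All of these are reads of similar length, so no correction for length was made.

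Across the 8 libraries, 15 pairs of the 6 miRNAs were compared on log2(CPM + 1), and 0 passed the Benjamini-Hochberg adjustment. The highest was that of miR-150-5p with miR-342-5p, with Pearson's r = 0.88 (permutation p = 0.00809, adjusted p = 0.121) and Spearman's rho = 0.69 (permutation p = 0.0694, adjusted p = 0.347). Without the 2 libraries farthest from the median of miR-150-5p, r was 0.45, so the relation rests on those libraries. The arms of the miR-142a hairpin, which come from one precursor, had r = 0.23 (permutation p = 0.590, adjusted p = 0.680) and rho = 0.26 (permutation p = 0.536, adjusted p = 0.754), and r was 0.13 without the 2 libraries farthest from the median.

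Among the other 457 miRNAs tested, the patterns closest to each member were picked by Pearson's r over the 8 libraries, which describes a likeness among many and carries no test. For miR-142a-3p they were miR-544-3p (r = 0.97), miR-376b-5p (r = 0.95) and miR-24-2-5p (r = 0.95). For miR-142a-5p they were miR-137-3p (r = 0.95), miR-153-5p (r = 0.88) and miR-101a-3p (r = 0.85). The first of these, miR-137-3p, was itself listed here as a miRNA of neurons. For miR-223-3p they were miR-433-5p (r = 0.92), miR-181c-3p (r = 0.86) and miR-505-3p (r = 0.75). For miR-150-5p they were miR-409-3p (r = 0.95), miR-138-1-3p (r = 0.93) and miR-574-3p (r = 0.93). The other arm of miR-138, miR-138-5p, was also listed here as a miRNA of neurons. For miR-342-3p they were miR-383-5p (r = 0.94), miR-92b-3p (r = 0.93) and let-7e-5p (r = 0.92), and for miR-342-5p miR-139-3p (r = 0.98), miR-1306-5p (r = 0.93) and miR-330-3p (r = 0.93). None of the 18 was on the lists of leukocyte or erythroid miRNAs.

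Next, the arms of each hairpin were compared within each library. For miR-142a the 3p arm exceeded the 5p arm in every library, by 2.92-fold, 4.78-fold, 3.65-fold and 2.45-fold in het1 to het4 and by 3.10-fold, 2.98-fold, 2.07-fold and 1.71-fold in ko1 to ko4. The 5p arm thus held 23.3% ± 5.06 of both arms in het and 29.7% ± 6.04 in ko (SD, n = 4 each). The log2 ratio of 5p to 3p was -1.74 ± 0.42 in het and -1.26 ± 0.42 in ko, a difference of 0.48 that did not pass (exact permutation test, two-sided, p = 0.2, adjusted p = 0.4 over the 2 hairpins, smallest possible p = 0.0286). The groups overlapped, and ko3 and ko4 had the 2 highest shares of 5p. The difference was 0.31 without het2, 0.32 without ko4 and 0.83 without the 2 deep ko libraries.

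For miR-342 the asymmetry was steeper. The 3p arm exceeded the 5p arm by 19.7-fold, 15.1-fold, 12.8-fold and 6.88-fold in het1 to het4 and by 20.3-fold, 19.4-fold, 13.2-fold and 11.9-fold in ko1 to ko4. The lowest ratio was that of het4, where miR-342-5p was at its highest. The 5p arm held 7.74% ± 3.44 of both arms in het and 6.10% ± 1.52 in ko. The log2 ratio was -3.67 ± 0.64 in het and -3.98 ± 0.39 in ko, a difference of -0.31 (exact permutation p = 0.514, adjusted p = 0.514), and it was -0.01 without het4 and 0.02 without the 2 deep ko libraries.

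**Figure D3:**
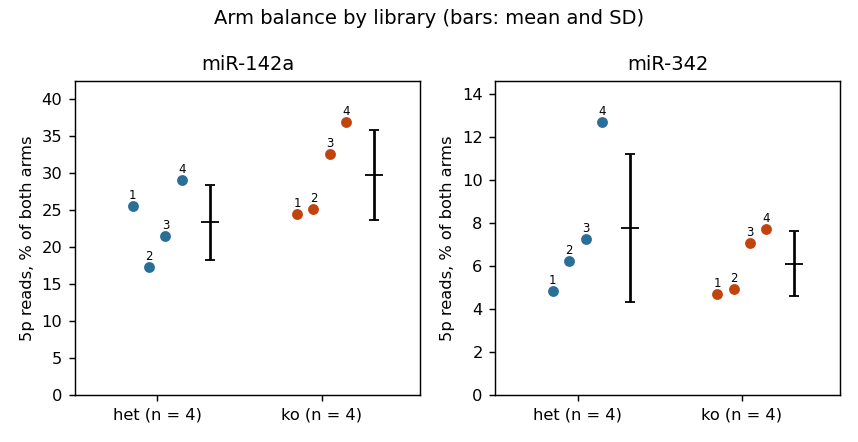
Share of the 5p arm among the reads of both arms (percent, linear axes from 0) for miR-142a and miR-342 in each library, with mean and SD per genotype. The 5p arm of miR-142a holds 17.3% to 36.9% and that of miR-342 4.70% to 12.7%, and the genotypes overlap in both panels.

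The reads of a miRNA were next placed on the RefSeq hairpin to find where they start. For miR-142a-3p the annotated start was not the leading one. Its most abundant reads are shown with bases 2 to 8 in capitals and with T for U, as in the deposited table.
first, starting 1 base downstream: gTAGTGTTtcctactttatgga
second, at the annotated start: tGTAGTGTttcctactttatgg
and the next, the annotated mature sequence: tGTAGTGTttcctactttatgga
The first averaged 123 CPM over the 8 libraries, 30.1% of the miRNA, the second 88.2 CPM and the last 46.8 CPM. Over all its reads, 47.4% ± 7.49 (SD, n = 8) started 1 base downstream, with the 6mer seed UAGUGU (bases 2 to 7), and 43.9% ± 6.80 started at the annotated base, with the seed GUAGUG. The downstream start was the more frequent one in 5 of 8 libraries, at 59.6%, 40.4%, 48.0% and 39.9% in het1 to het4 and 55.5%, 49.8%, 46.5% and 39.3% in ko1 to ko4. A further start 3 bases downstream held 5.85% ± 2.13 and lay at 5.05% to 9.57% in het and at 3.90% to 5.20% in ko, which was not tested.

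The study assigns each 6mer seed a viability, measured by putting the seed into cells in an siRNA backbone and averaged over 3 mouse lines, where a low value marks a seed toxic to cells. The seed UAGUGU has a viability of 57.6% and GUAGUG one of 75.8%, and the CPM-weighted viability of miR-142a-3p as a whole was 62.2% to 66.3% over the libraries. Nearly all RISC reads with the seed UAGUGU were reads of miR-142a-3p (97.9% to 100% over the libraries).

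miR-142a-5p also had a second start, on the other side of the annotated one. Its leading reads were the annotated mature sequence, the same with 1 more base, and a form starting 2 bases upstream.
first, the annotated mature sequence: cATAAAGTagaaagcactact
second, 1 base longer: cATAAAGTagaaagcactacta
and the next, starting 2 bases upstream: cCCATAAAgtagaaagcactac
They averaged 42.3, 36.0 and 21.6 CPM. The second ranged from 6.11 CPM in ko1 to 120 CPM in ko4, a spread that the first, at 18.6 to 68.5 CPM, did not show. Over all its reads, 63.7% ± 11.0 began at the annotated base (seed AUAAAG, viability 79.1%) and 31.2% ± 10.3 began 2 bases upstream (seed CCAUAA, viability 68.5%). The upstream form held 26.2%, 40.0%, 37.7% and 20.5% in het1 to het4 and 36.9%, 33.3%, 41.8% and 12.9% in ko1 to ko4, lowest in ko4. miR-142a-5p supplied 71.6% of the RISC reads with AUAAAG, the lowest such share among the main seeds of the 6 miRNAs, and miR-9-3p was next at 29.8 CPM.

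**Figure D4:**
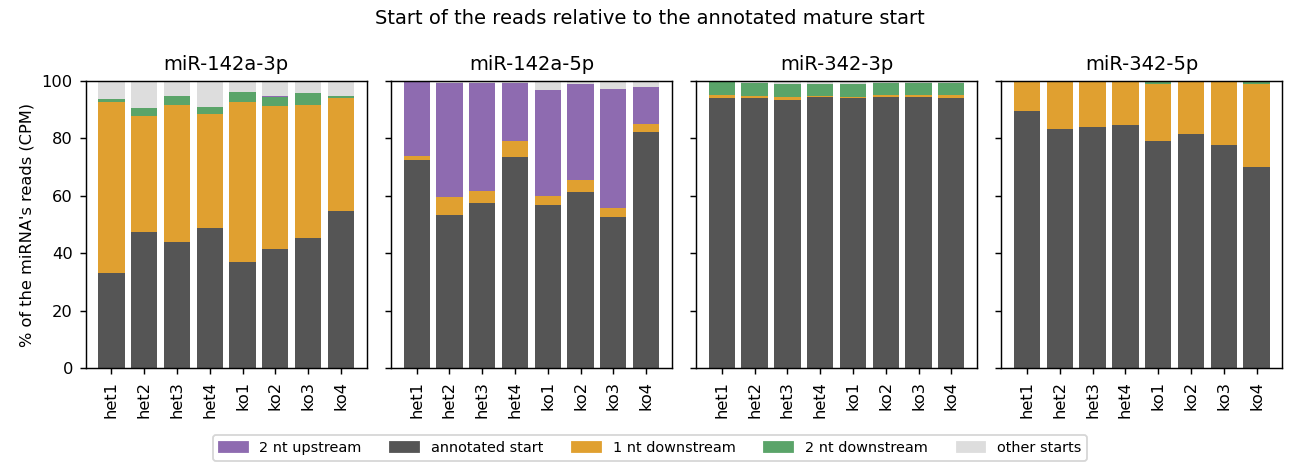
Share of the reads of 4 miRNAs (percent of CPM) by where they start relative to the annotated mature start, as stacked bars per library. miR-142a-3p is split between the annotated start (43.9%) and the next base (47.4%), miR-142a-5p between the annotated start (63.7%) and 2 bases upstream (31.2%), and the start 1 base downstream of miR-342-5p is higher in all ko bars than in all het bars.

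miR-342-5p carries the most toxic seed of the 6, GGGGUG, with a viability of 12.3%, and supplied 99.6% of the RISC reads with it. Its leading reads differ only at the 3' end.
first, the annotated mature sequence: aGGGGTGCtatctgtgattgag
second, 1 base longer: aGGGGTGCtatctgtgattgagg
and the next, 1 base shorter: aGGGGTGCtatctgtgattga
They averaged 42.9, 37.6 and 30.8 CPM. The share of its reads with another seed, nearly all of it GGGUGC from a start 1 base downstream (viability 22.3%), was 10.3%, 16.7%, 16.04% and 15.2% in het1 to het4 and 20.9%, 18.6%, 22.2% and 29.8% in ko1 to ko4. Every ko library was above every het library, but het1 held only 58 reads of miR-342-5p and ko4 only 181. The counting error of these shares was not tested. The means were 14.6% ± 2.89 in het and 22.9% ± 4.87 in ko, a difference of 8.30 percentage points (exact permutation test, two-sided, p = 0.0286, the smallest this design allows). This was 1 of 17 isoform measures tested, and its adjusted p was 0.486, the lowest that a single measure among 17 can reach here, so the adjusted threshold was out of its reach. Leaving out each library in turn gave differences of 5.99 to 9.74 percentage points. The viability of miR-342-5p as a whole was 13.8% ± 0.289 in het and 14.5% ± 0.465 in ko.

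The other 3 miRNAs kept mostly to one seed. miR-342-3p began at the annotated base in 94.1% ± 0.303 of its reads (seed CUCACA, viability 64.1%), and a start 2 bases downstream, with the seed CACACA, held 4.38% ± 0.278. These shares hardly moved between libraries. Its leading reads were the annotated form at 1067 CPM, the form with 1 more base at 889 CPM and that with 2 more at 182 CPM, so that reads longer than the annotation were a regular part of this miRNA.
first, the annotated mature sequence: tCTCACACagaaatcgcacccgt
second, 1 base longer: tCTCACACagaaatcgcacccgtc
and the next, 2 bases longer: tCTCACACagaaatcgcacccgtca
miR-150-5p held 97.9% of its reads on the seed CUCCCA (viability 69.3%). Its leading reads, of 22, 21 and 23 bases, averaged 1432, 477 and 208 CPM. miR-150-5p made up 95.9% of the RISC reads with CUCCCA, and miR-532-3p was next at 88.5 CPM.

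miR-223-3p stood apart by its 3' end. By mean CPM its leading read was the annotated sequence with 1 more base that the hairpin does not encode.
first, with an added T: tGTCAGTTtgtcaaataccccat
second, the annotated mature sequence: tGTCAGTTtgtcaaatacccca
and the next, 1 encoded base longer: tGTCAGTTtgtcaaataccccaa
They averaged 13.4, 11.3 and 8.82 CPM. The lead of the first was that of the mean only, to which het1 gave the most (30.9 against 17.4 CPM), and the annotated read was the higher of the pair in 4 of 8 libraries (het4, ko1, ko2 and ko3). Reads with a tail of up to 3 bases, all U and not encoded in the hairpin, made up 52.5%, 51.5%, 36.6% and 37.2% of miR-223-3p in het1 to het4 and 38.8%, 29.8%, 31.1% and 54.3% in ko1 to ko4. The mean was 41.5% ± 9.87 (SD, n = 8), with the 4 het libraries inside the range of the ko libraries. The same share averaged 5.83% in miR-142a-3p, 1.78% in miR-142a-5p, 4.32% in miR-342-3p and 4.62% in miR-342-5p, and 12.9% was the highest value of any of these in a library. Tails of A held 7.98% ± 1.52 of miR-142a-3p and 8.02% ± 3.84 of miR-342-5p, and 0.541% ± 0.177 of miR-342-3p. They held 1.87% ± 1.24 of miR-142a-5p and 4.22% ± 6.26 of miR-223-3p, where 18.6% in het1 was the highest value and 3 libraries had none. The seed of miR-223-3p, GUCAGU, has a viability of 31.3%, the second lowest of the 6, and 10.7% ± 4.15 of its reads began 1 base downstream.

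**Figure D5:**
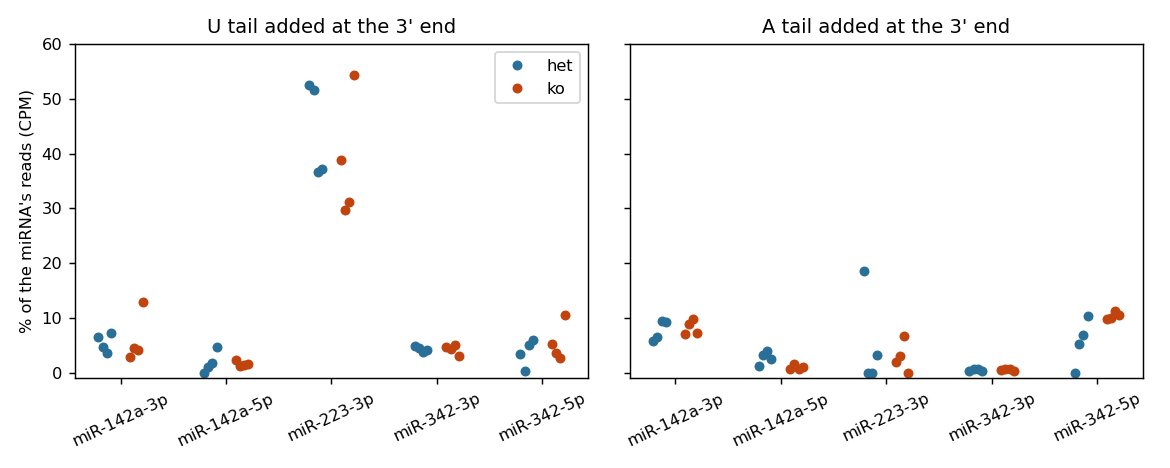
Share of the reads of 5 miRNAs (percent of CPM, miR-150-5p not placed) that end in a tail of U (left) or A (right) not encoded in the hairpin, with 1 point per library, het in blue and ko in orange. The U tails of miR-223-3p, at 29.8% to 54.3%, lie above those of the other 4 miRNAs shown in every library.

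The genotypes were also compared read by read. Of 3299 reads of at least 10 CPM on average, limma called 0.485% after adjustment (16, each with less in ko), and before adjustment 5.3% were under 0.05. Of the 34 reads that belong to the 6 miRNAs, 0 were called and 1 had an unadjusted p under 0.05. That read was a miR-142a-3p form 2 bases shorter at its 3' end than the annotation, tGTAGTGTttcctactttatg, with 26.7 ± 15.9 CPM (het) and 8.81 ± 4.66 CPM (ko) (adjusted p = 0.866). Its ko mean was under the minimum of 10 CPM, so it was tested through the het libraries, where it was higher. The reads tested covered 43.5% of miR-223-3p and 64.6% of miR-342-5p but 97.2% of miR-150-5p, so the low miRNAs were tested on a part of their reads. The 6 miRNAs together had a CPM-weighted viability of 64.1% to 65.0% in every library, above the 55.5% to 57.8% of all RISC reads. This pooled value rests mainly on miR-150-5p (37.1% to 51.6% of the summed CPM) and miR-342-3p (34.8% to 51.0%). Taken singly, miR-223-3p (31.4% to 31.7%) and miR-342-5p (13.3% to 15.2%) lay below all RISC reads.

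The other miRNAs linked to leukocytes, macrophages and inflammation were read from the same fit. Of 10 listed, 8 were named in the table, 4 were abundant enough to test and 0 were called in either direction (0 at an unadjusted p under 0.05, but 2 with median centring, with edgeR and with DESeq2, where 28, 25 and 30 of all miRNAs were under it). The smallest p-values were those of miR-155-5p, a miRNA induced in activated macrophages and lymphocytes, at 9.24 ± 4.89 CPM (het) and 19.3 ± 7.15 CPM (ko) (log2 fold change 1.01, SE 0.52, adjusted p = 0.693), and of miR-146a-5p, a brake on NF-kB signalling, at 398 ± 66.2 CPM and 546 ± 118 CPM (0.44, SE 0.25, adjusted p = 0.754). The het mean of miR-155-5p was under the minimum of 10 CPM, so it was tested through the ko libraries, where it was higher. The others tested were miR-21a-5p at 0.19 (adjusted p = 0.975) and miR-146b-5p at -0.08 (adjusted p = 0.975).

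The miRNAs of red blood cells were read beside these. Of 3 tested, 0 were called and 1 had an unadjusted p under 0.05. miR-451a was at 1629 ± 295 CPM (het) and 988 ± 520 CPM (ko) (log2 fold change -0.86, SE 0.36, adjusted p = 0.593) and miR-144-3p at 592 ± 429.5 CPM and 283 ± 225 CPM (-1.07, SE 0.51, adjusted p = 0.613). The joint name of miR-486a-5p and miR-486b-5p went slightly the other way, at 199 ± 50.8 CPM and 205.02 ± 64.8 CPM (0.03, SE 0.31, adjusted p = 0.995). The 4 erythroid names summed to 1911 to 3392 CPM in het and 912 to 2380 CPM in ko. Their part in the levels of the 6 miRNAs was not tested.

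Of the other cell types, 0 of 6 miRNAs of neurons were called. Before adjustment 1 was under 0.05 in each of the lists of neurons and oligodendrocytes, 4 in that of epithelium and 0 in that of endothelium. In that of the choroid plexus it was miR-211-5p alone, which passed the filter on low values through ko libraries. Among those of neurons the smallest p-values were those of miR-138-5p (log2 fold change -0.61, adjusted p = 0.529) and miR-9-5p (0.41, adjusted p = 0.796). Nor did any of 3 of oligodendrocytes pass, where miR-219a-5p (-1.08, adjusted p = 0.495) and miR-338-3p (-0.51, adjusted p = 0.754) came first, and miR-219a-2-3p was at 0.13 (adjusted p = 0.975). The same held for both of endothelium, miR-126a-3p (0.10, adjusted p = 0.975) and miR-126a-5p (-0.29, adjusted p = 0.975), and of the choroid plexus miR-204-5p was at -0.13 (adjusted p = 0.975). miR-211-5p was at 0 CPM in het1 and het2, 9.71 CPM in het3 and 12.4 CPM in het4 and at 8.82 to 47.7 CPM in ko. No fold change or adjusted p is given for it for that reason. Of 6 epithelial miRNAs tested, all with negative log2 fold changes, 3 were called, led by miR-429-3p (-3.98, adjusted p = 0.000127) and miR-200a-3p (-3.80, adjusted p = 0.000534). The epithelial names summed to 2249 to 8555 CPM in het and 226 to 1794 CPM in ko, and how far this moved with the 6 miRNAs was not tested.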

How the data were processed

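Ago-bound short RNAs of 8 brains, 4 het and 4 ko, were analysed from 1 deposited table. Per the study's methods the authors trimmed the reads (Trim Galore is named in the submitters' processing notes), compiled read counts per distinct sequence, removed rare and artificial sequences, annotated miRNAs by BLAST and scaled each library to 1000000 reads, so the deposited values are CPM. Versions of the read-processing tools and a genome build are not given in the sources used here. The viability of each 6mer seed is a score the authors joined to each read from an earlier screen in 3 mouse cell lines. All CPM values were whole multiples of 1 read (100% within 0.0006 CPM plus an allowance that grew with the value). This gave the depths and the recovered reads. In a deep library such an allowance is too wide to check very high values.

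CPM was summed by exact miRNA name. limma 3.58.1 (R 4.3.3) was fitted to log2(CPM + 1) of all 463 miRNAs, and of all 3299 reads, with a mean of at least 10 CPM, with Benjamini-Hochberg adjustment over all. Fold changes on this scale understate the change of low miRNAs. Arm and isoform measures had exact permutation tests over all 70 assignments. Reads were placed without gaps on RefSeq hairpins by the fewest mismatches, and a tail is a 3' mismatch run of at most 3 bases. Alternatives were pseudocounts of 0.1 and 10, minimum means of 1 and 100 CPM or none, median centring, a replicate block, leaving out libraries, edgeR 4.0.16 and DESeq2 1.42.0. The fit was tested on simulated data. The 6 miRNAs and all lists were chosen with earlier results of these data known. Named were the 6 miRNAs, the 3 top reads and 3 most similar patterns of each, and the 2 smallest p-values of each list. A further read of miR-142a-3p was named as the single one under the unadjusted threshold, chosen after its values were seen.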

Additional observations from a re-analysis of the deposited data

Results flagged for a closer look

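Among 50 groups of 4 libraries, 6 held a library far from the others by Dixon's criterion, where chance gives about 2.5 (1 in 20 groups). The miR-150-5p level of ko3 was 4136 CPM against 2252 CPM for the next ko library. The annotated mature sequence held 7.15% of miR-142a-3p in het2 (next 11.8%) and 8.57% of miR-223-3p in ko4 (next 26.9%), the latter from a library with 35 reads of miR-223-3p. The mean read length of miR-142a-5p was 21.46 nt in het4 (next 21.22 nt) and 21.74 nt in ko4 (next 21.02 nt). The mean read length of miR-150-5p was 21.94 nt in het1 (next 21.89 nt).

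Reads that the table ties to the same hairpins without a mature name lay outside the comparisons above. For miR-150 they averaged 26.8 CPM (42 sequences) and for miR-342 50.9 CPM (59 sequences), both above the highest detection floor of 5.79 CPM. For miR-342, 11 of these sequences matched the hairpin exactly, at 15 to 19 nt and 17.2 CPM together. The most abundant began 7 bases downstream of the start of miR-342-3p, cAGAAATCgcacccgt, and averaged 6.87 CPM.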

How the results depend on the processing

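None of the 6 miRNAs was called under any of the 18 alternatives and neither was any other leukocyte-linked miRNA. The isoform measures also gave 0 under their 11, which says little, since a single measure could not pass after adjustment in this design. Over all miRNAs, 10 were called with the replicate block in place of 6, and 4 to 9 with each library left out (4 with edgeR, 9 with DESeq2). In place of 16 reads, 35 were called at a minimum of 1 CPM, 5 at 100 CPM, 45 with no filter, 26 with the replicate block, 9 without the 2 deep libraries, 27 with DESeq2 and 9 to 21 with each library left out (10 without het2, 9 without het4). The replicate numbers were not taken to pair the mice. Same-numbered libraries correlated at -0.182 to 0.291 and 3 of 8 were closest to their own number. These values cannot show whether the mice were paired.

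The sign of several small differences turned, and the cause was not tested. In log2 fold change, miR-142a-5p became 0.18 with median centring, 0.045 without the deep libraries, 0.13 with edgeR and 0.14 with DESeq2, and miR-342-5p became 0.21, 0.43, 0.091 and 0.11. With each library left out, miR-142a-5p ran from -0.18 to 0.085, miR-223-3p from -0.67 to 0.085, miR-150-5p from -0.24 to 0.17 and miR-342-5p from -0.30 to 0.30. Without the deep libraries the miR-342 arm balance was 0.021, the off-seed share of miR-142a-3p 4.07 and of miR-142a-5p -3.26 percentage points, their mean length -0.0163 and 0.108 nt, and the mature share of miR-142a-3p -0.953 points. With each library left out, the off-seed share ran from -5.01 to 1.78 (miR-142a-3p), -2.55 to 7.34 (miR-142a-5p) and -0.625 to 0.000895 points (miR-150-5p). The mature share ran from -9.17 to 1.91 (miR-142a-5p) and -1.96 to 1.59 points (miR-342-3p), and the mean length from -0.0231 to 0.00287 nt (miR-150-5p) and -0.0225 to 0.0575 nt (miR-342-3p). Depth limits miR-223-3p most, with 33 reads in het2, and its level has no value at a minimum of 100 CPM. The exact tests cannot go below 0.0286 with 1 library left out, 0.0667 without the deep libraries and 0.125 with the block.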
